A study of Mus musculus with 3 samples.

Results

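The genes described here encode the protein components of the cytosolic ribosome in the mouse. They were chosen by symbol from the annotated protein-coding genes, as Rpl or Rps followed by a number with an optional letter or l, together with Rplp0, Rplp1, Rplp2 and Rpsa. The rule found 81 of 22380 protein-coding genes, of which 49 belong to the large subunit and 32 to the small subunit. Rps6k kinases and pseudogenes were left out. For 1 member, Rpl13, no row was analysed here, and the other 80 had a level.

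A ribosome is assembled in the nucleolus from ribosomal RNA and about the same amount of each of its proteins, so that the genes for these proteins are usually transcribed and translated together. Their messenger RNAs are short and abundant, and most begin with a tract of pyrimidines (C and T) through which the mTOR pathway sets their translation. Cells that grow or divide make more ribosomes. Ribosomal protein messenger RNAs were also copied back into the genome many times during evolution, which left processed copies without introns that can be almost identical in sequence to the gene of origin.

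RNA sequencing was performed on 3 sorted cell subsets of BALB/C mice whose kidney had been injected with a mouse renal carcinoma line, named Renca in the labels and Renca Ch+ L+, its derivative carrying Cherry and luciferase, in the study's text. The library labelled M2 was sorted as F4/80hi CD11bint macrophages, that labelled M1 as F4/80int CD11bhi macrophages, and that labelled CD4 as TCRbeta and CD4 positive T cells. Cells were pooled from 30 tumors and 4 spleens, the labels give both day 14 and day 16 for the harvest, and they name both tumor and spleen as the source of the CD4 T cells. All 3 groups carried the tumor, and each was 1 library. A difference between libraries therefore has no replicate check, and no p-value is given.

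Marker genes went against 2 of the labels, which bears on every comparison that follows. All 13 T cell markers found of a list of 15 were highest in the library labelled M2, where their summed level was 1698 FPKM, against 18.3 in that labelled CD4 and 11 in that labelled M1. FPKM count sequenced fragments relative to transcript length and to the depth of the library. All 15 macrophage markers were lowest in the library labelled M2, with a sum of 768 FPKM against 14679 in that labelled CD4 and 9701 in that labelled M1. No defining macrophage marker was at 0 in the library labelled M2, and Csf1r stood there at 15.3 FPKM against 519 and 279 in those labelled CD4 and M1. In the library labelled CD4, the listed level of Cd247, which encodes the CD3 zeta chain, was 0 FPKM, and that of Cd3e 0.141 FPKM. Sums of other markers were also highest in the library labelled M2, at 47.0 FPKM for 5 B cell markers, 197 for 6 neutrophil markers and 191 for 8 renal epithelial markers. Singly, 3, 5 and 5 of these markers were highest there. Cd79b and Ly6g were at 0 in M2, Pax5 was at 0 throughout, Slc34a1 and Lrp2 were highest in CD4 and Epcam in M1. Most of the neutrophil sum in M2 was S100a8 at 84.5 FPKM and S100a9 at 110. The part of these markers in the differences between ribosomal protein genes was not tested. Libraries are named by their labels throughout, and 3 values in a row are in the order CD4, M2 and M1. In bulk RNA, fewer cells of a type and less RNA per cell cannot be told apart.

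Among the ribosomal protein genes read at their own locus, levels differed widely within each library, from 0.333 to 602 FPKM among the members above 0 throughout in that labelled CD4. Of the 80 members, 67 were above 0 in all 3 libraries and 53 had at least 10 FPKM in all 3. The median over the 67 was 33.6 FPKM in the library labelled CD4, 65.7 in M2 and 42.1 in M1, while the median over all protein-coding genes above 0 was 4.56, 4.70 and 4.53 FPKM. The order of the genes was nearly the same in each library, with a Spearman rho of 0.97 between M2 and CD4, 0.96 between M2 and M1 and 0.98 between CD4 and M1 across the 67 genes, which share the same annotation and lengths.

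By mean level over the 3 libraries at its own locus, the highest member was Rps9, at 602, 809 and 730 FPKM. It is a small subunit protein at the entry of the messenger RNA channel. Rpl8, which lies next to the peptidyl transferase centre, had 511, 965 and 653 FPKM. Rps15 had 328, 841 and 488 FPKM. Rplp1, an acidic protein of the stalk that recruits elongation factors, had 505, 932 and 388 FPKM. Each of these 4 genes was highest in the library labelled M2.

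The lowest levels belonged to genes of restricted use and also to components of every ribosome. Rpl3l and Rpl10l are tissue-restricted relatives of Rpl3 and Rpl10, found mainly in muscle and in testis. Rpl3l stood at 0.0811 FPKM in the library labelled CD4 and 0.241 in that labelled M2, and was listed at 0 in M1. Rpl10l was listed at 0 in all 3 libraries. Rpl39l, the testis relative of Rpl39, had 0.333, 0.573 and 0.122 FPKM. Each of these relatives was below 1 FPKM in every library. Rpl29 at 0.851, 0.384 and 0.320 FPKM and Rpl21 at 2.52, 3.70 and 2.72 FPKM were almost as low, yet both encode components of ordinary ribosomes. Rps13, another such component, had 1.75 FPKM in the library labelled CD4 and 4.67 in M1, and was listed at 0 in M2.

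A value of 0 in this table can be a failed estimate rather than missing RNA. Zeros were listed for 7 members in the library labelled CD4, 8 in M2 and 9 in M1. Besides Rpl10l, 4 genes were at 0 throughout: Rps18, Rps28 and Rps4x of the small subunit and Rpl18 of the large. A further 8 were at 0 in some libraries only, among them the following. Rpl12 was listed at 0 in CD4 and M1, Rpl10, Rpl14 and Rpl3l in M1, and Rpl6, Rps13 and Rps23 in M2. No fold is given against these zeros.

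The level of a gene at its own locus went together with the number of near-identical copies it has elsewhere in the genome. The complete reading frame of each member was aligned to the mouse genome, and alignments of at least 90% identity over at least 80% of the frame were taken as copies. The search found 1053 such loci for 76 of the members, with 15 loci of at least 98% identity for Rpl21, 11 for Rpl7a and 7 for Rpl29. Among the 67 genes, 13 had no copy of at least 98% identity, and their median was 281 FPKM in the library labelled CD4, 417 in M2 and 363 in M1. The 33 genes with 1 to 3 such copies had medians of 36.2, 78.3 and 52.4 FPKM. The 21 genes with 4 or more had 15.0, 26.2 and 19.4 FPKM. Spearman's rho between the number of copies and the level was -0.56, -0.56 and -0.55. Rps9, Rpl8 and Rps15, which are among the most abundant members, had no copy of at least 98% identity.

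The deposited table also lists levels for genes annotated at the copies. Of the copy loci, 645 coincided with an annotated gene or pseudogene, and 641 of these had a row. Together they held more than the members themselves. The copies summed to 21050 FPKM in the library labelled CD4, 36452 in M2 and 24577 in M1, against 6621, 11671 and 7999 FPKM for the members. Copies thus held 76.1%, 75.7% and 75.4% of the summed level of members and copies. A fragment transcribed from a copy and a fragment of its gene of origin cannot be told apart in this table where the sequences are the same.

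All members listed at 0 throughout except Rpl10l had clear levels at the genes annotated at their copies. Whether fragments of these members were counted at the copies was not tested. Rps18, at chr17:34088944-34092946 on the minus strand of NCBIM37 (mm9), is an essential protein of the small subunit head and a common reference gene. The genes annotated at its copies held 603, 838 and 752 FPKM, most of it at Gm10260, an intronless gene at chr13:98530042-98530587 whose frame matches that of Rps18 at 99.1% identity. Rps28 had 416, 821 and 464 FPKM at copies, led by Gm10443 at chr6:86284004-86284310. Rps4x, the X-linked form of Rps4, had 165, 331 and 230 FPKM at copies, led by Gm13680. Rpl18 had 59.5, 103 and 86.4 FPKM at copies. For Rpl13, the member with no row analysed here, the copies held 30.4, 46.7 and 38.6 FPKM. Rpl10l remained near 0, with 0.0184 FPKM in the library labelled CD4 and 0 in those labelled M2 and M1.

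**Figure D1:**
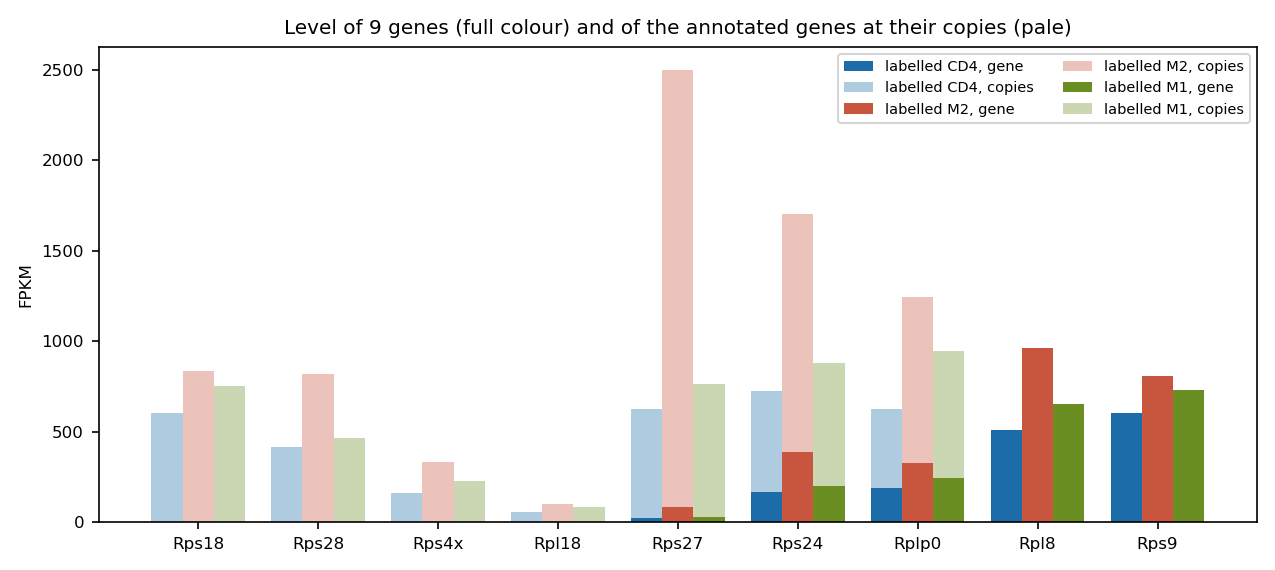
Bars show the FPKM of 9 ribosomal protein genes in the libraries labelled CD4 (blue), M2 (red) and M1 (green), with the gene itself in full colour and the sum over the genes annotated at its copies in a paler shade above it; each bar is 1 library, so there is no error bar. Rps18, Rps28, Rps4x and Rpl18 consist of copies alone, Rpl8 and Rps9 of the gene alone, and the red bar is the tallest for each of the 9.

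When each member was summed with its annotated copies, the ribosomal protein genes came closer to each other. The median over the 81 members became 316, 506 and 388 FPKM. Over the 67 genes, the middle part of the distribution (the 25th to the 75th percentile) ran from 20.8 to 179.9 FPKM in the library labelled M2 for the gene alone, and from 258 to 920 FPKM with copies. In that labelled CD4 it went from 14.5 to 115 FPKM alone and from 165 to 544 with copies, and in M1 from 15.4 to 138 and from 208 to 657. The rho between number of copies and level was then 0.02, -0.04 and 0.02. Because the sum adds the levels listed at copies, it is not independent of their number, and part of this shift is built in. Rpl29 stood at 55.7, 101 and 95 FPKM with copies, and Rps13 at 402, 786 and 504. Rpl21 reached only 22.5, 37.8 and 28.5 FPKM, although 54 genes were annotated at its copies, and Rpl3l and Rpl39l had no annotated copy and kept their values.

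**Figure D2:**
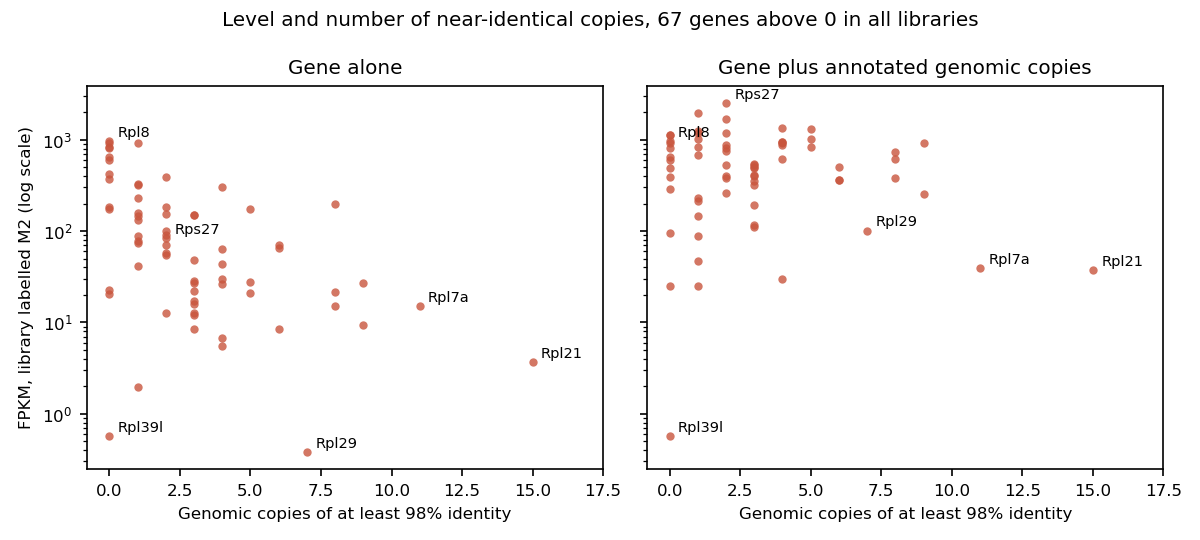
Each point is 1 of the 67 ribosomal protein genes above 0 in all libraries, with its number of genomic copies of at least 98% identity on the horizontal axis and its FPKM in the library labelled M2 on the logarithmic vertical axis, for the gene alone (left) and summed with the genes annotated at its copies (right). Levels are lower with more copies on the left (rho -0.56), an order not seen on the right (rho -0.04). The right panel adds the levels at the copies and so is not independent of their number.

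The ribosomal protein genes had their highest levels in the library labelled M2. Rplp0, the stalk base protein often used as a reference gene, had 188 FPKM in the library labelled CD4, 329 in M2 and 248 in M1. This order, M2 over M1 over CD4, was that of 48 of the 67 genes, and 57 of the 67 were highest in M2. Over all 8825 protein-coding genes with at least 1 FPKM in all libraries, 44.6% were highest in M2 and 22.5% were in this order. With copies included, 69 of 79 members above 0 in all libraries were highest in M2 and 61 of 79 were in the order M2 over M1 over CD4.

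The difference was below 2-fold for most genes. On the log2 scale of FPKM + 1, which understates differences of low genes, the median over the 80 members was 0.68 between M2 and CD4, a ratio of 1.60. It was 0.40 between M2 and M1 and -0.25 between CD4 and M1. Over the 67 genes above 0 throughout the medians were 0.78, 0.47 and -0.28, and with copies 0.77, 0.48 and -0.28. Protein-coding genes with at least 1 FPKM in all libraries had medians of 0.05, 0.05 and 0.00 (8825 genes). Genes with a longest transcript under 1000 bases had -0.01, -0.14 and -0.14 (589 genes). The share of the summed protein-coding FPKM held by the members was 2.30% in CD4, 4.86% in M2 and 2.79% in M1, but highest in CD4, at 0.245%, when all rows of the table were summed. Some genes at copies, such as Gm9846 and Gm10260, are annotated as protein-coding. They count in the total and not among the members. Both subunits took part: with copies, the medians between M2 and CD4 were 0.72 for the 49 large subunit genes and 0.83 for the 32 small subunit genes, and between M2 and M1 they were 0.43 and 0.54.

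**Figure D3:**
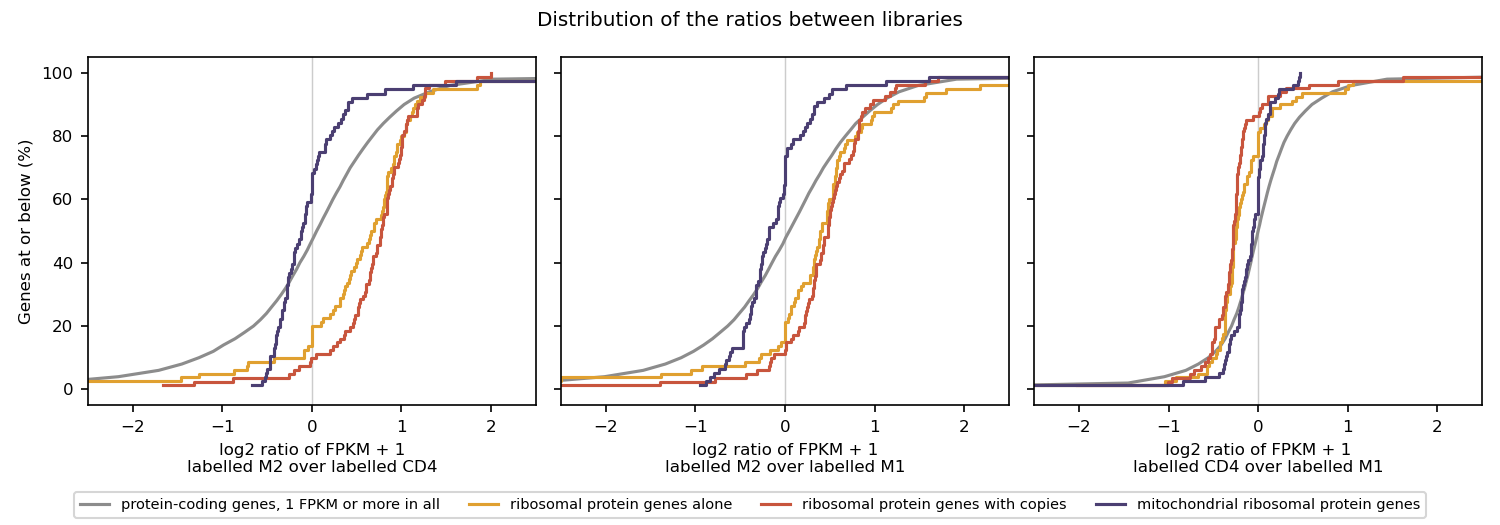
Cumulative distributions of the log2 ratio of FPKM + 1 between libraries, for protein-coding genes with at least 1 FPKM in all libraries (grey), ribosomal protein genes alone (yellow), the same with their annotated copies (red) and mitochondrial ribosomal protein genes (purple); the vertical axis is the percentage of genes at or below a ratio. In the first and second panels the red curve is steep, and its middle part lies to the right of the grey one, with medians of 0.77 and 0.48. In the third panel its middle part lies to the left, with a median of -0.28. The curves cross near their ends.

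Few members differed by 2-fold or more at their own locus. Between the libraries labelled M2 and CD4, 16 of 72 members that reached 1 FPKM in either library were at least 2-fold higher in M2, where 16.0% of all protein-coding genes were, and 4 were at least 2-fold lower, where 16.4% were. Of the 67 of these members above 0 in both, 14 were 2-fold higher (background 13.6%) and 1, Rpsa, was lower (background 14.7%). Between M2 and M1, 10 of 72 members were 2-fold higher in M2 (background 15.9%) and 5 lower (background 15.3%). Of those above 0 in both, the counts were 7 of 66 (background 13.5%) and 2 (background 13.5%). Between CD4 and M1, 4 of 71 were 2-fold higher in CD4 (background 7.09%) and 2 lower (background 7.29%), or 2 of 68 (background 5.19%) and 1 (background 5.53%) of those above 0 in both. In the higher direction the members made up 22.2% and, above 0 in both, 20.9% between M2 and CD4, and less than the background in the comparisons with M1. In the lower direction, the members above 0 in both made up 1.49% and 3.03% in the comparisons of M2 with CD4 and M1.

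Of the 16 members 2-fold higher in M2 than in CD4, 13 were also 2-fold higher once copies were added, among them Rpl12, Rpl13a, Rpl24, Rplp2, Rps15, Rps19, Rps20, Rps21, Rps24, Rps27 and Rps3a. The sum contains the level at the own locus, so the measures are not independent, and Rps20 had 0 FPKM at its copy. Both measures use the first complete row of each transcript. With all rows summed, 12 of 73 members were 2-fold higher in M2 than in CD4. Rps15 then had 452 FPKM in CD4 and 841 in M2, and Rps19 87.3 and 149, both below 2-fold. Rplp2 was then lower in M2, at 2604 FPKM against 3594 in CD4. With copies, 19 of 81 members were 2-fold higher. Fewer calls held elsewhere: 0 of 4 lower in M2 than in CD4, and 4 of 10 higher and 1 of 5 lower in M2 than in M1. Between CD4 and M1, 0 of 4 higher and 1 of 2 lower held. No share over all genes was computed for sums with copies or for all rows summed. Rps19, the gene most often mutated in Diamond-Blackfan anaemia, had 61.8, 149 and 117 FPKM alone and 139, 316 and 216 with copies. Its transcripts of the protein-coding type alone had 25.5, 31.3 and 36.5 FPKM, highest in M1. Rps24, also mutated in that disease, had 169, 391 and 201 FPKM alone and 725, 1701 and 880 with copies. Rpl13a, which is also known for a role in silencing inflammatory transcripts, had 171, 367 and 161 FPKM alone and 490, 1118 and 477 with copies. Its transcripts of the protein-coding type alone had 110, 145 and 101 FPKM. Rps21 had 80.6, 176 and 38.0 FPKM alone and 120.5, 288 and 97.2 with copies. In Rpl13a and Rps21 the library labelled M1 was below that labelled CD4 alone and with copies, which departs from the order of most members. With all its rows summed Rps21 had 94.3 FPKM in M1, above the 80.6 in CD4.

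Rps27, a zinc finger protein of the small subunit, differed most between M2 and CD4 among the members with copies included. It had 22.9, 84.6 and 28.3 FPKM at its own locus, a log2 ratio of 1.84 between M2 and CD4 and 1.55 between M2 and M1. With its 7 annotated copies it had 626, 2500 and 764 FPKM, log2 ratios of 1.996 and 1.71. The leading copy, Gm9846 at chr9:114891515-114891858, matches the Rps27 frame at 100% identity and held 497, 1952 and 594 FPKM. Its relative Rps27l, a p53 target that can take the place of Rps27 in the ribosome, was lowest in M2, with 42.3, 22.8 and 61.1 FPKM. The log2 ratio of Rps27l was -0.86 between M2 and CD4 and -1.38 between M2 and M1, and -0.88 and -1.40 with its single annotated copy.

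The reading frames of this pair are shown because their levels in M2 differ from those in the other libraries in opposite directions, and because reads can be assigned to one or the other only where the letters differ. Both are 255 bases long, written 5′ to 3′ from the NCBIM37 reference transcripts, and capitals mark the 61 bases at which they differ. Rps27 lies at chr3:90016593-90017573 on the minus strand and Rps27l at chr9:66793893-66797323 on the plus strand.
Rps27: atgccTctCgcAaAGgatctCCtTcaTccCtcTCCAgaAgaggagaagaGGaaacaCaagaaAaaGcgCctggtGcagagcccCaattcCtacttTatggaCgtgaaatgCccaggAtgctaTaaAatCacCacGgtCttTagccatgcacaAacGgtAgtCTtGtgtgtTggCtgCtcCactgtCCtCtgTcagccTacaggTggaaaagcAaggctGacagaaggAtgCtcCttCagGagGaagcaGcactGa
Rps27l: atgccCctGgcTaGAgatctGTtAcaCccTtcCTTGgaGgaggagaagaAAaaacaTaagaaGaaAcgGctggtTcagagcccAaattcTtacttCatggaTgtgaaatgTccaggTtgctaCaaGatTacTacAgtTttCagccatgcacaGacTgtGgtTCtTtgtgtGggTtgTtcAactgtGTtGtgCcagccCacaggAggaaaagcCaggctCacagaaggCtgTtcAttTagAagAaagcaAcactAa
The longest stretch without a difference is 11 bases, and none of the 205 windows of 51 bases, the length of a read, is the same in both. No read lying within the frame of one gene matches the other exactly.

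Another pair, Rpl36a on chromosome X and its relative Rpl36al on chromosome 12, encodes nearly the same large subunit protein. Rpl36a had 3.82, 1.95 and 5.12 FPKM and Rpl36al 123, 156 and 165, so the relative carried nearly all of the level. With copies Rpl36a stood at 16.5, 24.9 and 24.7 FPKM and Rpl36al at 172, 215 and 234. Rpl36al was highest in M1 on both measures. Their frames of 321 bases differ at 39 positions, and of 271 windows of 51 bases none is identical and 38 differ by at most 2 bases. Rpl22 had 17.1, 20.5 and 16.2 FPKM, and its relative Rpl22l1, outside the rule, 13.5, 23.6 and 22.9. Rpl7 had 199.99, 316 and 218 FPKM against 30.1, 21.2 and 26.8 for Rpl7l1, a relative with a role in ribosome assembly.

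A minority of members were not highest in the library labelled M2. At their own locus these were Rpl27, Rpl29, Rpl30, Rpl31, Rpl36a, Rpl36al, Rpl38, Rpl7a, Rps27l and Rpsa. Rpsa, which is also the laminin receptor, had 72.7, 29.8 and 36.7 FPKM, a log2 ratio of -1.26 between M2 and CD4. With its 11 annotated copies it had 558.5, 948 and 670 FPKM and had the order of most members. A row of Rpsa with a value in M2 alone, at 223 FPKM, is not part of its level. With copies, M2 was also highest and CD4 lowest for Rpl27, at 346, 618 and 458 FPKM with copies, for Rpl30 at 145, 360 and 203, and for Rpl38 at 210, 399 and 231. This was not so for Rps27l and Rpl7a, and Rpl7a had 47.1, 39.1 and 67.8 FPKM with copies. Both were lowest in M2 alone and with copies, but with all its rows summed Rpl7a was highest there, at 31.3, 43.6 and 29.4 FPKM. On that measure Rpl27, at 6.15, 9.46 and 8.25 FPKM, and Rpl30, at 8.79, 15.1 and 9.01, were also highest in M2. Rpl29 then had 0.851, 4.03 and 4.59 FPKM, highest in M1 and lowest in CD4.

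For some genes the values changed unevenly when copies were added. Rpl14 had 32.9 and 66.2 FPKM in the libraries labelled CD4 and M2 and was listed at 0 in M1, while its copy Rpl14-ps1 had 178 FPKM in CD4, 0 in M2 and 426 in M1. Rpl10a had 53.1, 78.3 and 52.4 FPKM, and its identical copy Rpl10a-ps1 had 474 and 604 FPKM in CD4 and M2 and 0 in M1. Rps27a, which is made as a fusion with ubiquitin, had 14.1, 28.2 and 18.5 FPKM alone and 276, 111 and 89.2 with copies. Rpl3 had 9.46, 12 and 10.7 FPKM alone and 605, 546 and 679 with copies. Rps27a and Rpl3 had the common order alone and not with copies. The order of the libraries also changed for Rpl14, and for Rpl10a it did not change, with M1 lowest on both measures.

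**Figure D4:**
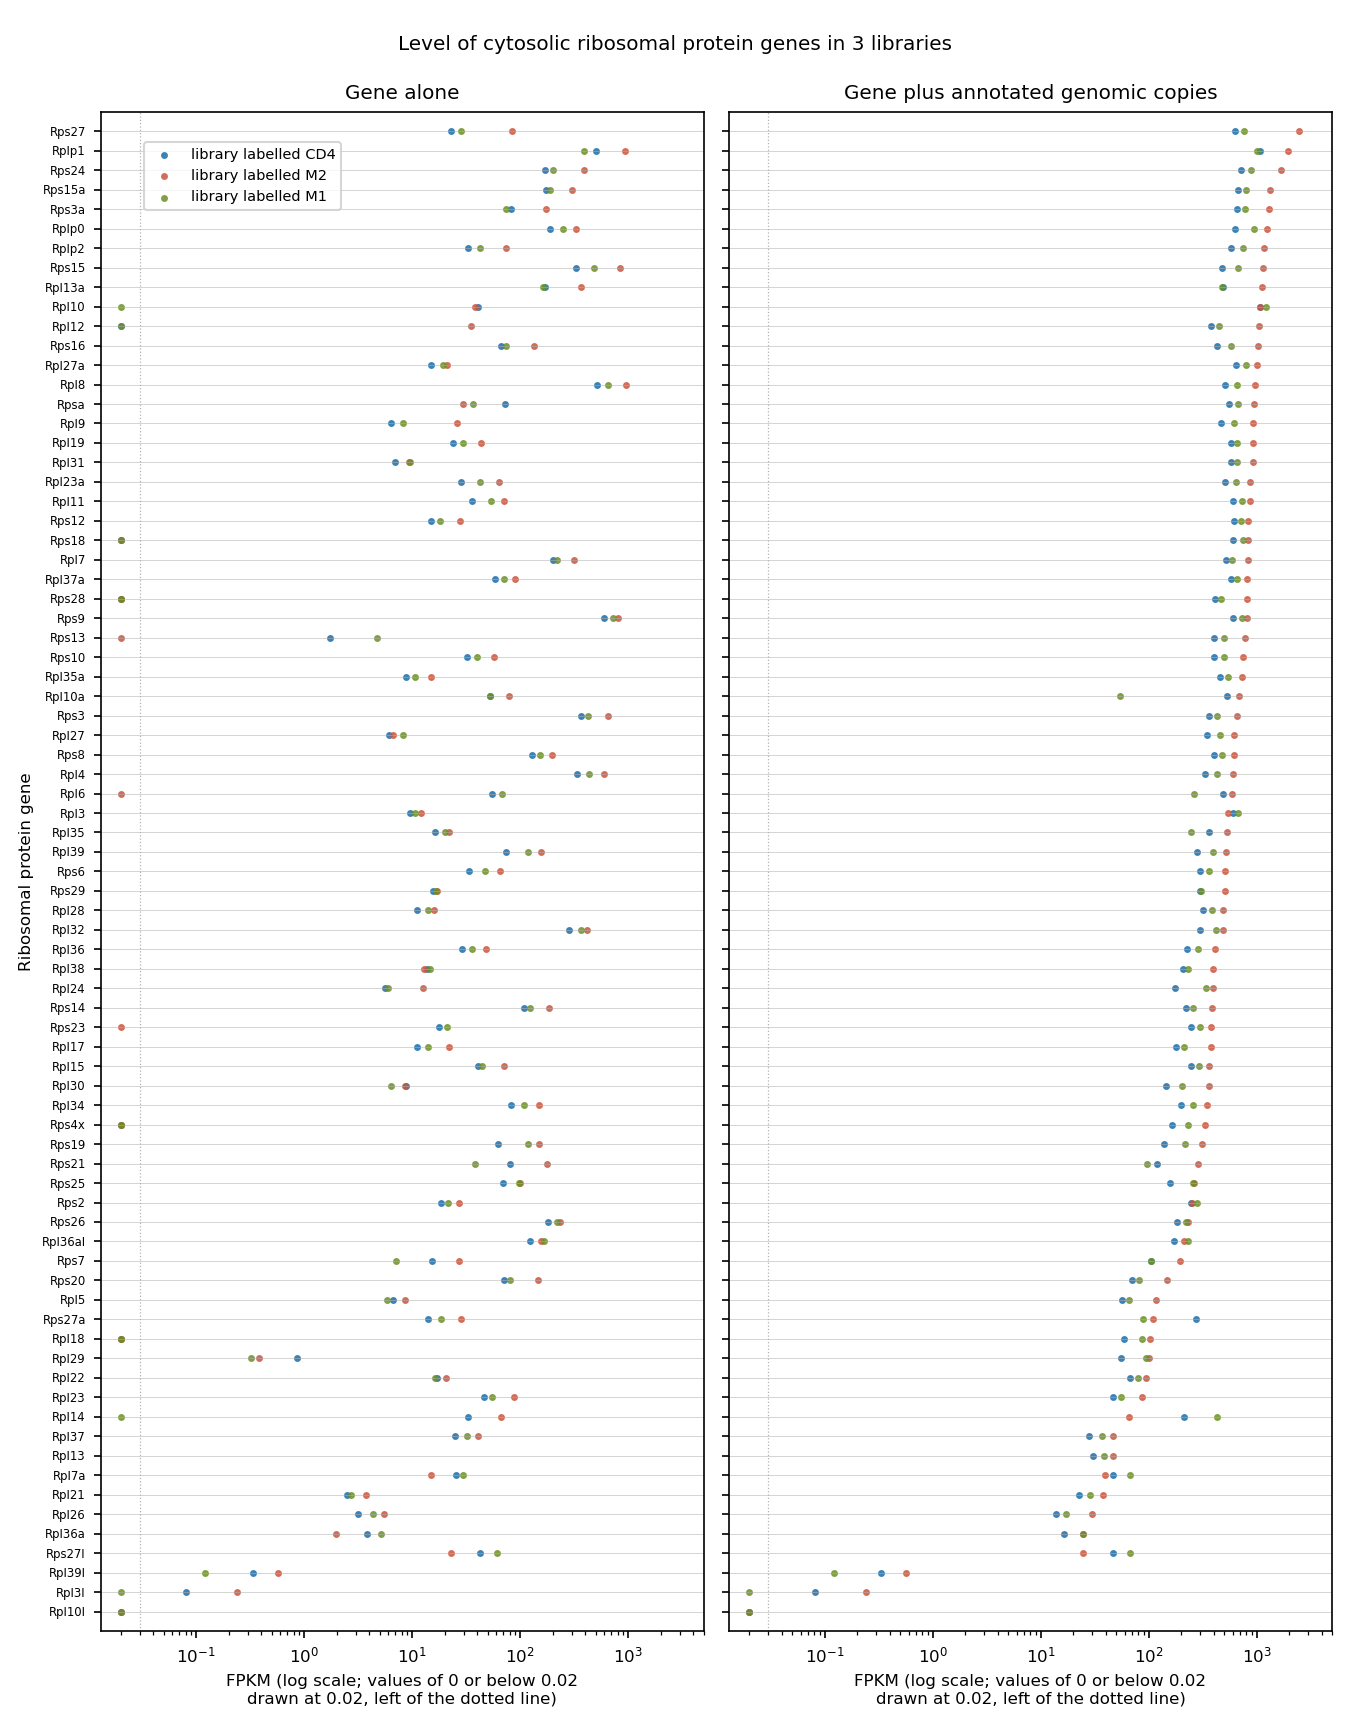
Members (all but 4) in the libraries labelled CD4 (blue), M2 (red) and M1 (green), with FPKM on a logarithmic horizontal axis and values of 0 or below 0.02 drawn at 0.02, for the gene alone (left) and summed with the genes annotated at its copies (right), sorted by the right panel. On the left the genes run from 0 to 965 FPKM and on the right up to 2500 FPKM, and the red point is the rightmost of the 3 in most genes of both panels.

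Other members with a well-known role were mostly highest in the library labelled M2. Rpl5 and Rpl11, which bind Mdm2 when ribosome assembly fails, had 6.61, 8.49 and 5.81 FPKM and 36.2, 70.4 and 53.5 FPKM, and with copies 56.4, 118 and 66.4 and 607, 868 and 741. Transcripts of Rpl11 of the protein-coding type were at 0 FPKM in each library. Rpl23, a further Mdm2-binding protein, had 46.2, 87.2 and 55.1 FPKM and almost nothing at its single annotated copy. Rps6, the substrate of S6 kinase, had 33.6, 65.7 and 47.1 FPKM. Rps3, which also takes part in DNA repair, had 364, 653 and 428 FPKM and no copy. Rps14, whose loss is known from a form of myelodysplastic syndrome, had 107, 185 and 124 FPKM. Rps2 had 18.5, 27.2 and 21.6 FPKM alone and 247, 255 and 283 with its 31 annotated copies. Its transcripts of the protein-coding type alone had 12.6, 4.98 and 12.5 FPKM. Rplp2, the partner of Rplp1 in the stalk, had 33.0, 74.3 and 42.1 FPKM alone and 579, 1184 and 748 with copies, apart from other rows of Rplp2 that are higher than these and are not part of its level. Over all transcripts, all but Rps2 with copies were highest in the library labelled M2.

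A pyrimidine tract at the transcription start is a feature the choice of members did not use. Start regions from RefSeq (build GRCm38.p6) were found for 60 of the 81 member genes. A run of at least 8 bases made only of C and T, touching the interval from 5 bases before to 5 bases after the annotated start on the transcribed strand, was present in 23 of the 60 (38.3%), and in 2962 of all 27025 genes (11%). The count describes letters at annotated starts and not where transcription began in these cells. The 30 bases around the start are given for Rps9, the member with the highest mean level at its own locus, for Rps27 and Rps27l, and for Rps24. The longest run of C and T is in capitals. They lie at chr7:3704026-3704055 on the plus strand, chr3:90213634-90213663 on the minus strand, chr9:66946071-66946100 on the plus strand and chr14:24490663-24490692 on the plus strand.
Rps9: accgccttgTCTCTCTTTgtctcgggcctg
Rps27: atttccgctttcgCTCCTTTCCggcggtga
Rps27l: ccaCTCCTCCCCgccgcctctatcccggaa
Rps24: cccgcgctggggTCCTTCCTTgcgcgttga
Each of these windows holds a run of 9 pyrimidines. The run spans the annotated start in Rps9, Rps27 and Rps24, whereas in Rps27l it ends before the start. Rps27l and Rps24 each have a second start in the RefSeq table, where the longest run is 4.

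Fau, which yields the ribosomal protein Rps30 as part of a fusion, lies outside the rule. It had 5.27, 5.22 and 6.57 FPKM and was not highest in M2.

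Proteins of the mitochondrial ribosome, which are encoded in the nucleus but serve mitochondrial translation, did not share the pattern. The median log2 ratio over 76 of their genes was -0.12 between M2 and CD4, -0.17 between M2 and M1 and -0.06 between CD4 and M1. Between M2 and CD4, 24 were above 0 and 47 below. The lowest ratio, -0.67, was that of Mrpl39, at 7.03, 4.06 and 7.03 FPKM. The highest were those of Mrpl42 and Mrps25, which stood at 0 in CD4 and had 16.8 and 6.02 FPKM in M2.

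A list of 34 genes of translation and ribosome production lay between both groups. Its median log2 ratio was 0.40 between M2 and CD4, 0.24 between M2 and M1 and -0.20 between CD4 and M1, and 29, 25 and 6 of the 34 were above 0. Of 8825 protein-coding genes with at least 1 FPKM in all libraries, 4664, 4639 and 4410 were above 0. Of the 34, none was 2-fold lower in M2 than in CD4, against 16.4% of all protein-coding genes. At least 2-fold higher in M2 were 3 of the 34, a share below the 16.0% of all protein-coding genes. These 3 were Eif3f, a subunit of an initiation factor, with 22.9, 88.8 and 74.2 FPKM, Tpt1, a growth-related protein whose RNA also begins with a pyrimidine tract, with 236, 516 and 188, and Polr1a, the large subunit of RNA polymerase I, with 4.95, 13.1 and 8.91.

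Elongation factors of the list were abundant. Eef1a1, which brings aminoacyl-tRNA to the ribosome, had 1632, 2128 and 1749 FPKM, and Eef2, which moves the ribosome along, had 436, 629 and 490. Gnb2l1 (Rack1), a scaffold bound to the small subunit, had 508, 751 and 554 FPKM. All 3 had the order M2 over M1 over CD4. Among regulators, Myc had 19.5, 34.7 and 23.1 FPKM and Ubtf, a polymerase I factor, 24.8, 40.1 and 27.2. Ncl, the nucleolar protein nucleolin, had 15.9, 32.2 and 10.3. Eif4ebp1, which holds back cap-dependent initiation, was lowest in M2, at 57.7, 37.7 and 64.4 FPKM, and Mtor hardly differed, at 7.14, 8.13 and 7.56. With Eif4ebp1, 5 of the 34 genes were lower in M2 than in CD4, and 29 were higher. Among the 5 were also Wdr12, at 4.20, 1.76 and 1.94 FPKM, Pes1, at 16.7, 12.2 and 19.4, and Nhp2, at 22.2, 18.8 and 29.6.

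Among genes outside the members, those whose pattern over the 3 libraries was most like that of Rplp0 were Cox7a2l, Calcrl, Ccdc88b, Golga5 and Setd2, with distances of 0.0054 to 0.024 in centred log2(FPKM + 1). Cox7a2l had 80.6, 141 and 106 FPKM. Within a distance of 0.25 lay 28 of 64 other members with at least 1 FPKM in all libraries (43.8%) and 7.04% of 8760 other genes. The distance rests on 3 values for each gene.

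Single genes differed also in which transcript carried the level. Of the 360 annotated transcripts of the members, 332 had a row. Of the 67 genes, 32 had 2 or more transcripts above 0, and among these the same transcript led in all 3 libraries in 20 and differed in 12. The share over all protein-coding genes was not computed, so this count has no background. Some of the 12 were close: in Rpl7 the leading transcripts held 51.5%, 53.1% and 53.0% of the level. In Rpl13a the leading transcript was protein-coding in CD4 and M1, with 64.1% and 62.5% of the gene's level, and in M2 one annotated as a target of nonsense-mediated decay, with 60.6%. Over all members, transcripts of the protein-coding type held 92.9%, 90.5% and 92.6% of the summed level. FPKM hold no counts, but the step between low values gave estimated depths of 74800000, 60800000 and 58700000 fragments. On this scale Rplp0 rests on about 19069, 27142 and 19734 fragments, Rps27 on 591, 1774 and 573, and Rpl39l on 17.3, 28.0 and 5.75.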

How the data were processed

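RNA from 3 sorted cell subsets was sequenced in 1 library each. The authors aligned paired reads of 51 bases to MM9 with Bowtie and TopHat and estimated transcript levels with Cufflinks and Ensembl release 67. The authors deposited levels in FPKM, 1 column per library. FPKM are normalized to length and depth, so they hold no counts, and how reads with several equal alignments were shared among copies is not given in the sources used here.

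Of 92519 transcript identifiers, 90316 were found in the NCBIM37 annotation of GENCODE (Ensembl 65). For each transcript the first row with a value in all 3 columns was kept, and rows were summed per gene. Ratios are log2 of FPKM + 1, a call is a 2-fold difference, and genes needed at least 1 FPKM in one of the 2 columns. No test was possible with 1 library per subset. Reading frames of at least 150 bases were aligned to the genome with BLAST+ 2.17.0, and an annotated gene counted as a copy where it and the locus overlapped by at least 0.5 of each on the same strand. Members and lists were chosen with earlier results of these data known. Sums with copies were added after the data were seen. Genes named were members listed at 0, the 5 highest and 5 lowest, those with the 4 most extreme ratios in each comparison and direction, members with relatives or well-known roles, fusion genes, genes of the translation list, the extremes of the mitochondrial list, the 5 genes most like Rplp0, and T cell, macrophage, B cell, neutrophil and renal markers. Others named in the text, copies included, were chosen after their values were seen. Some genes are not reported here by themselves and remain in the counts, sums and medians. Other rows, pseudocounts, filters, folds, scalings and transcript types were tried as alternatives. Software was pandas 2.3.3, numpy 2.4.6, Biopython 1.88, scipy 1.17.1 and matplotlib 3.10.9 under Python 3.11.15.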

Additional observations from a re-analysis of the deposited data

Results flagged for a closer look

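The levels use the first complete row of each transcript, and other rows of the same transcripts were left out. Of these 59 other rows, which belong to 35 members, 53 had a value in 1 column only and 48 were above 0. The following are among those flagged because a signal stood in rows that the levels do not use.

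Rplp2 had 3561 FPKM in other rows of the library labelled CD4, 2529 of that labelled M2 and 3249 of that labelled M1, against levels of 33.0, 74.3 and 42.1. With these rows Rplp2 was lowest in the library labelled M2, where its level in use was highest. Rpsa had 223 FPKM in other rows of M2, above its 29.8. Rpl14 had 85.2 FPKM in M1 and Rps13 10.9 in M2, both where the level was 0. Rpl39 had 78.6 FPKM in CD4, Rpl7a 28.5 in M2 and Rps21 56.2 in M1, against levels of 74.5, 15.1 and 38.0. Whether these rows count the same fragments as the rows in use was not tested.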

How the results depend on the processing

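No median reversed its sign under the alternatives run. The median log2 ratio lay between 0.47 and 0.82 for M2 to CD4, between 0.32 and 0.48 for M2 to M1 and between -0.28 and -0.19 for CD4 to M1. The lowest for M2 to CD4, 0.47, was that over transcripts of the protein-coding type, which also raised the members listed at 0 in M2 to 15. Counts of 2-fold members moved more. At 1.5-fold, 44 members were higher and 7 lower in M2 than in CD4, 22 were higher in M2 than in M1, and 4 were lower in CD4 than in M1. The share of all protein-coding genes past 1.5-fold was not computed, so these counts have no background. With at least 10 FPKM in each column, 53 members remained. Of these, 12 were higher and 1 lower in M2 than in CD4, and 5 were higher and 1 lower in M2 than in M1. In CD4, 1 was higher and 0 lower than in M1. Of 3697 protein-coding genes with at least 10 FPKM in all libraries, 240 were higher and 441 lower in M2 than in CD4. The counts were 205 and 405 between M2 and M1, and 93 and 106 between CD4 and M1. With members above 0 in both columns, 1 was lower in M2 than in CD4 (background 14.7%) and 2 lower in M2 than in M1 (background 13.5%). Between CD4 and M1, 2 were higher in CD4 (background 5.19%) and 1 lower (background 5.53%). With all rows summed, 12 of 73 were higher and 2 lower in M2 than in CD4, and 2 were higher and 4 lower in CD4 than in M1. With the highest single row, 2 were lower in M2 than in CD4 and 2 higher in CD4 than in M1. For all rows summed and for the highest single row, the share over all genes was not computed. The share of summed FPKM became 0.245% (CD4), 0.177% (M2) and 0.126% (M1) with all rows summed, and 1.13%, 2.21% and 1.37% with FPKM times length. The share was thus highest in CD4 with all rows summed. The cause was not tested. No paired analysis was possible because each subset was 1 library. Leaving out a replicate was not run for the same reason. The lowest members, such as Rpl39l, rest on few fragments, and intervals of counting error were not computed because the values are FPKM.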
